A study of Mus musculus with 41 samples.

Results

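Expression of 36 genes of glycolysis and lactate metabolism was compared between BNC and NC mouse mesothelioma cell lines. The genes were chosen by name, from the glucose transporters through the enzymes of the glycolytic chain to lactate dehydrogenase, the pyruvate dehydrogenase kinases, and the lactate carriers. All 36 were found among the 27197 genes of the count table. RNA sequencing counts of 6 lines were used, namely 3 BNC lines named JB81, JB91, and JB97 and 3 lines with intact Bap1 named JB84, JB87, and JB93, called NC. BNC lines carry the genotype Bap1-/-;Nf2-/-;Cdkn2ab-/- and NC lines the genotype Nf2-/-;Cdkn2ab-/-, so both lack Nf2 and Cdkn2ab and differ in Bap1. The lines were grown at early passage from pieces of thoracic tumors of mixed-background mice given cyclosporine A, in which an adenovirus with Cre under the CMV promoter had been injected into the pleural space. The Cre deleted floxed Bap1, Nf2, and p19Arf, whereas Ink4a and Ink4b were missing from the germline. The virus was not restricted to mesothelial cells by its promoter, and the labels do not say whether each line came from another animal, so p-values measure the spread between these lines only.

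Glycolysis turns glucose into pyruvate in the cytosol. Glucose enters through GLUT transporters, hexokinase traps it as glucose-6-phosphate, phosphofructokinase commits it to the pathway, and enolase and pyruvate kinase complete the chain. Lactate dehydrogenase then reduces pyruvate to lactate, which leaves the cell through monocarboxylate carriers, and pyruvate dehydrogenase kinases hold pyruvate back from the mitochondria. Most steps have several isozymes encoded by separate genes with their own tissue patterns, and many tumors take up glucose and release lactate even with oxygen present.

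The lines had 12377675 to 23936922 counts in all. Levels are given as counts per 1000000 counts (CPM) after TMM scaling, which corrects for differences in library composition. JB81 and JB91 were almost alike, with 0.695% of genes more than 2-fold apart, as were JB84 and JB93 with 1.08%, whereas 18.1% to 27.5% of genes were that far apart in the other pairs of lines with the same genotype. The counts of both close pairs differed by more than counting noise (chi-square per degree of freedom 14.73 and 21.64, beside 108 or more for the other pairs), which does not show that the lines of a pair arose separately. The tests treat each line as 1 sample because the labels name 6 lines. A fit without JB97 or JB87 leaves 1 genotype with its close pair alone, so near-alike lines then set the spread within it. When the close lines were summed, leaving 2 samples for each genotype, edgeR called 0 of 12859 genes at either threshold, with DESeq2 calling 582 genes at adjusted p under 0.01 and over 2-fold. The counts of Bap1 were lower in BNC lines (38.02 to 44.1 CPM against 60.7 to 64.3 CPM, log2 fold change -0.57, SE 0.13, adjusted p = 0.039), and only some of its exons are deleted, so counts over the whole gene check the genotype weakly. Nf2 had a log2 fold change of -0.09 (SE 0.18, adjusted p = 0.734), Cdkn2a was read at no more than 0.567 CPM, and Cdkn2b had 1 count in JB97 and none in the other lines.

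Of the 36 genes, 31 had enough counts to be tested. A gene was called when edgeR's quasi-likelihood test gave an adjusted p (Benjamini-Hochberg) under 0.01 and the change was over 2-fold. The test called 3 of the 31 genes against 1.10% of all 12376 genes tested. Eno3 and Eno1b, both encoding enolases, were higher in BNC lines, and Pfkp, encoding the platelet-type phosphofructokinase, was lower. At an adjusted p under 0.05, 4 of the 31 genes passed, the added one being the glucose transporter gene Slc2a3, lower in BNC lines, and 14.2% of all genes did. DESeq2 called these 4 genes, the same threshold giving 15.1% of all genes that it tested.

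The calls of Eno3, Pfkp, and Eno1b by edgeR ended when the close lines were summed (adjusted p 0.14 to 0.253), and all 3 held in DESeq2 on the same sums. They also ended with the prefix of the column names as a covariate (adjusted p 0.0263 to 0.0329), which sets JB81, JB84, and JB87 apart from JB91, JB97, and JB93. The groups of lines did not overlap for Eno3, Eno1b, Pfkp, and Slc2a3, as for 41.5% of all tested genes. The same order within each prefix follows from that and tests nothing about the prefix.

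The other 27 tested genes did not pass. Of the 31 genes, 22 had a lower and 9 a higher mean in BNC lines, a count that became 15 lower and 16 higher without JB87. The median log2 fold change was -0.25 beside 0.00 over all tested genes, and it was 0.01 without JB87. The groups of lines did not overlap for 13 of the 31 genes, 11 of them lower and 2 higher in BNC lines, which is close to the 41.5% of all tested genes. In the plot of the fold changes, Eno3, Pfkp, and Eno1b stand apart mainly by their small standard errors relative to their change.

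**Figure D1:**
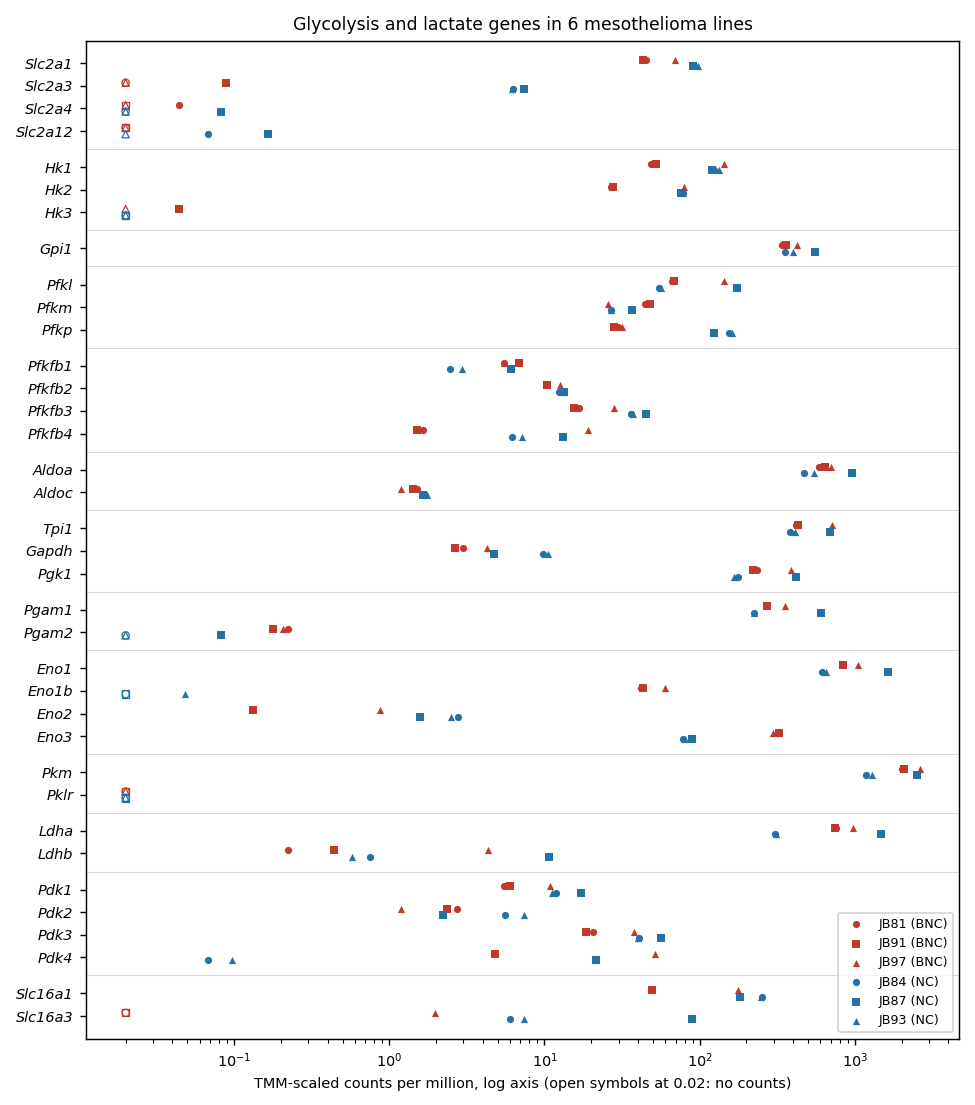
CPM of each of the 36 genes in the 6 lines on a log axis, grouped by role, with BNC lines in red and NC lines in blue and open symbols where a line had no counts. Pkm reaches the highest values, between 1178 and 2616 CPM, and Eno3 and Pfkp show the genotypes apart with little spread within them.

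**Figure D2:**
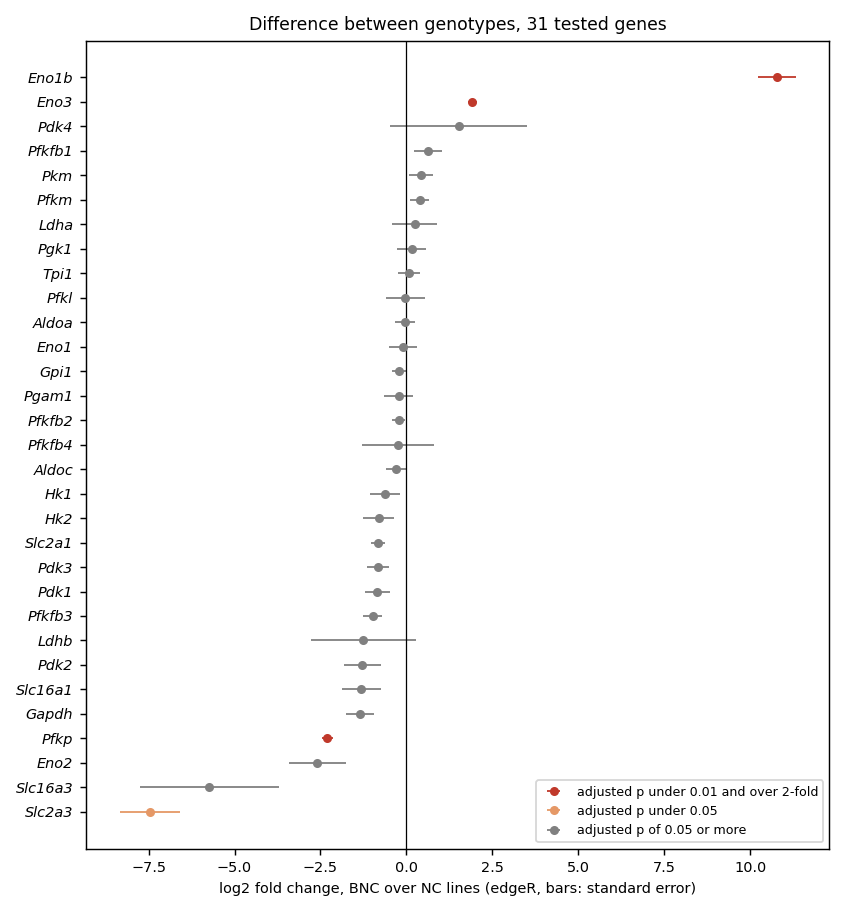
Log2 fold change of BNC over NC lines with its standard error for the 31 tested genes, from edgeR. The called genes are Eno1b at 10.78, Eno3 at 1.92, and Pfkp at -2.30. Standard errors run from 0.13 for Eno3 to 2.03 for Slc16a3, with 0.54 for Eno1b.

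Enolase converts 2-phosphoglycerate to phosphoenolpyruvate. Eno1 encodes the alpha form of most cells, Eno2 the gamma form known from neurons, and Eno3 the beta form known from skeletal and heart muscle. Eno3 (chr11:70657202-70662513, plus strand, GRCm38) was read at 321, 323, and 295 CPM in JB81, JB91, and JB97, against 78.5, 89.2, and 80.9 CPM in JB84, JB87, and JB93. Every BNC line was far above every NC line, and both genotypes were tight. The means were 313 ± 15.9 CPM (SD, n = 3) and 82.8 ± 5.596 CPM (SD, n = 3), a 3.78-fold difference (log2 fold change 1.92, SE 0.13, adjusted p = 0.0047). No 65-base stretch of its transcript, the length of the reads, was found elsewhere in the genome. Eno3 lost the call without JB81, JB91, JB84, or JB93, with adjusted p between 0.0451 and 0.0549, and its log2 fold change stayed between 1.78 and 1.99 under every alternative run.

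Markers of skeletal and heart muscle were examined beside Eno3. Of 10 such markers, 6 had at most 3 counts in every line, among them the creatine kinase gene Ckm and the myosin genes Myh6 and Myh7. Their summed level was 3.14 to 12.6 CPM in BNC lines and 37.5 to 76.8 CPM in NC lines, and most of the NC sum came from Tnnt2, a cardiac troponin gene (1.11, 1.37, and 7.88 CPM in JB81, JB91, and JB97, and 72.7, 36.1, and 76.4 CPM in JB84, JB87, and JB93). Acta1, the skeletal muscle actin gene, was the other marker tested, without overlap between the groups, at 0.886, 1.46, and 4.33 CPM in JB81, JB91, and JB97 and 0.271, 0.659, and 0.338 CPM in JB84, JB87, and JB93 (log2 fold change 2.40, SE 0.75, adjusted p = 0.080). The part of muscle-type expression in the Eno3 difference was not tested.

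The stretch of 250 bases before the RefSeq start of Eno3 (build GRCm38.p6, chr11:70656926-70657175, plus strand) is shown with that of Pfkp (chr13:6648772-6649021, minus strand) because these were the called genes with a promoter in the table, and with those of Ldha (chr7:46845554-46845803, plus strand) and Pgk1 (chrX:106186850-106187099, plus strand) because both enzymes are known targets of hypoxia-inducible factor. Capitals mark matches, on either strand, to ACGTG, a form of the core of hypoxia response elements, and to the E-box CACGTG, which contains it. The other form of that core, GCGTG, was not marked or counted.
Eno3: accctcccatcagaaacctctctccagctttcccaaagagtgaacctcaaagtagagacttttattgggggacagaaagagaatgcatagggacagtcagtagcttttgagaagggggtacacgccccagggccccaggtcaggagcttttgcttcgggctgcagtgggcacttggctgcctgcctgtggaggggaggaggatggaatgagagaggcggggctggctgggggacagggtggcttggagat
Pfkp: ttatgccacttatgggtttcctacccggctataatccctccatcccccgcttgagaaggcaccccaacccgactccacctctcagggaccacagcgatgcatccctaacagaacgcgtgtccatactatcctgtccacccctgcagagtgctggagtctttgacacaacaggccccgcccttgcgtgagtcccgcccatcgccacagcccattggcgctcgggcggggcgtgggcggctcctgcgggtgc
Ldha: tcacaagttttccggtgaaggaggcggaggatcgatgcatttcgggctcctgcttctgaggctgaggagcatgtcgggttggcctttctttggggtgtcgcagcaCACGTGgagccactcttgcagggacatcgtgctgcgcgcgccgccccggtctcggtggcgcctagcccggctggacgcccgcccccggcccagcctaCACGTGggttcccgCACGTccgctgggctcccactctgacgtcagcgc
Pgk1: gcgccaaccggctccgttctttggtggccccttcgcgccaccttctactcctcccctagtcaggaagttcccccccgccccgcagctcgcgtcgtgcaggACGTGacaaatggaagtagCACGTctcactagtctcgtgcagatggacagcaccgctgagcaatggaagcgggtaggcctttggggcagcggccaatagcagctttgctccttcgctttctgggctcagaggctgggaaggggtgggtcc
The letters of ACGTG and CACGTG were absent from the windows of Eno3 and Pfkp, whereas those of GCGTG, on either strand, were in both. The window of Ldha held 5 matches to ACGTG counted on both strands, of which 2 pairs are the 2 E-boxes, and that of Pgk1 held 2. Of 53 RefSeq starts of the genes studied, from 33 genes, 35.8% held ACGTG and 11.3% held CACGTG in such a window, beside 16.6% and 6.02% of 32851 starts of all genes.

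Eno1b is a near-identical copy of Eno1 on chromosome 18, and its reads need care. It had 944, 981, and 1152 counts in JB81, JB91, and JB97, against 0, 0, and 1 in JB84, JB87, and JB93. The pooled level was 2270 times higher in BNC lines, with a 95% counting interval of 407 to 89600 (adjusted p = 0.00283). Eno1b passed the filter on low counts through the BNC lines alone, so a difference was built into its being tested, and it was not tested with at least 10 counts in every line. The aligned transcripts of Eno1 and Eno1b were identical at 1643 positions and different at 9, and 85.5% of the 65-base stretches of Eno1b occurred elsewhere in the genome, so which gene such reads came from is uncertain. The counts of Eno1b were 5.03%, 5.18%, and 5.68% of those of Eno1 in JB81, JB91, and JB97, and at most 0.00738% in the NC lines. The part of reads shared with Eno1 in these counts was not tested. Eno1b lost the call without JB81, JB91, JB84, or JB93 (adjusted p 0.0189 to 0.0411).

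Eno1 itself was read at 831, 838, and 1045 CPM in JB81, JB91, and JB97, and at 615, 1631, and 654 CPM in JB84, JB87, and JB93. JB84 and JB93 were the lowest and JB87 the highest of the 6 lines, so the BNC lines lay inside the range of the NC lines (log2 fold change -0.09, SE 0.41, adjusted p = 0.885). Eno2 was at 0.133, 0.133, and 0.876 CPM in JB81, JB91, and JB97, and at 2.78, 1.57, and 2.51 CPM in JB84, JB87, and JB93. The groups did not overlap, at levels of few counts (log2 fold change -2.59, SE 0.82, adjusted p = 0.0813). Eno2 met the filter on low counts through the NC lines, where it was higher. Without JB97, which leaves the close pair as the BNC lines, the log2 fold change of Eno2 was -4.04.

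By length, Eno1 made up 64.2%, 64.2%, and 69.9% of enolase messages in JB81, JB91, and JB97, and 85.6%, 93.3%, and 86.0% in JB84, JB87, and JB93. The share of Eno3 was 32.2%, 32.1%, and 25.5% in the BNC lines and 14.2%, 6.61%, and 13.8% in the NC lines, so every BNC line had a larger share of Eno3 than any NC line. The mean difference in the share of Eno3 was 18.4 percentage points (exact permutation p = 0.10, two-sided, the smallest that 3 against 3 lines can give, and 0.20 adjusted over 32 shares). Eno1 shared 68.2% of its 65-base stretches with other places in the genome and Eno3 none, so the size of these shares is uncertain. The total level of the enolases, in CPM per kilobase of transcript, overlapped (674 ± 55.4 in BNC and 531 ± 287 in NC lines, SD, n = 3, exact permutation p = 0.40).

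**Figure D3:**
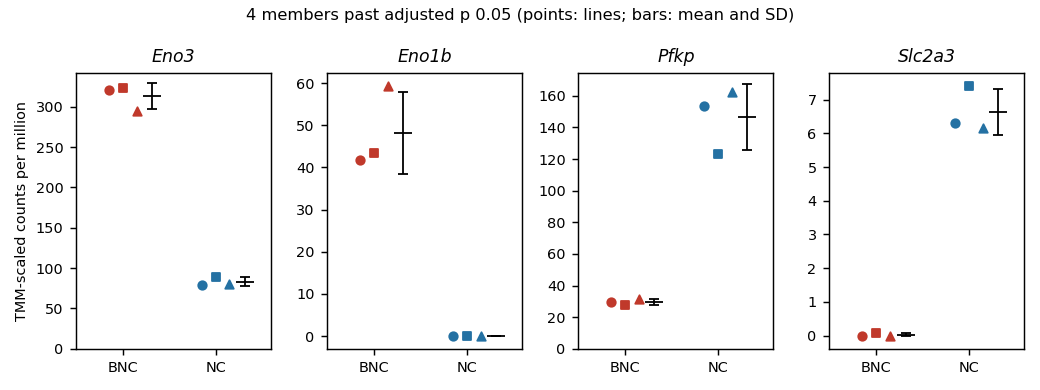
CPM of Eno3, Eno1b, Pfkp, and Slc2a3 in each of the 3 BNC and 3 NC lines, with the mean and SD beside the points. Eno3 and Eno1b lie higher in all BNC lines, and Pfkp and Slc2a3 lie higher in all NC lines.

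Phosphofructokinase phosphorylates fructose-6-phosphate, the committed step of glycolysis, and is built from liver (Pfkl), muscle (Pfkm), and platelet (Pfkp) subunits. Pfkp (chr13:6579768-6648777, minus strand) was at 29.6, 27.9, and 31.6 CPM in JB81, JB91, and JB97, against 154, 123, and 163 CPM in JB84, JB87, and JB93. All BNC lines were below all NC lines, and the spread among BNC lines was small. The means of 29.7 ± 1.82 CPM and 147 ± 20.8 CPM (SD, n = 3 each) were 4.93-fold apart (log2 fold change -2.30, SE 0.16, adjusted p = 0.00476). The call was lost without JB81, JB91, JB84, or JB93 (adjusted p 0.0405 to 0.0549).

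Pfkl was read at 65.9, 68.4, and 143 CPM in JB81, JB91, and JB97 and at 54.9, 173, and 56.7 CPM in JB84, JB87, and JB93. JB97 and JB87 were the high lines, and the genotypes overlapped (log2 fold change -0.03, SE 0.56, adjusted p = 0.972). Pfkm ranged from 25.6 to 48.1 CPM over the 6 lines (log2 fold change 0.38, SE 0.28, adjusted p = 0.358).

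The share of Pfkp among the subunits did not overlap between the genotypes. Pfkp made up 17.8%, 16.1%, and 13.9% of phosphofructokinase messages per length in JB81, JB91, and JB97, and 60.7%, 33.5%, and 61.6% in JB84, JB87, and JB93 (mean difference -36.0 points, exact permutation p = 0.10, adjusted 0.20). Pfkl had the largest share in JB81 (44.0%), JB91 (43.9%), JB97 (69.9%), and JB87 (52.2%), and Pfkp in JB84 and JB93. The total level per length was 45.6 ± 8.08 in BNC and 71.3 ± 15.3 in NC lines (CPM per kilobase, SD, n = 3, exact permutation p = 0.10), without overlap between the groups.

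**Figure D4:**
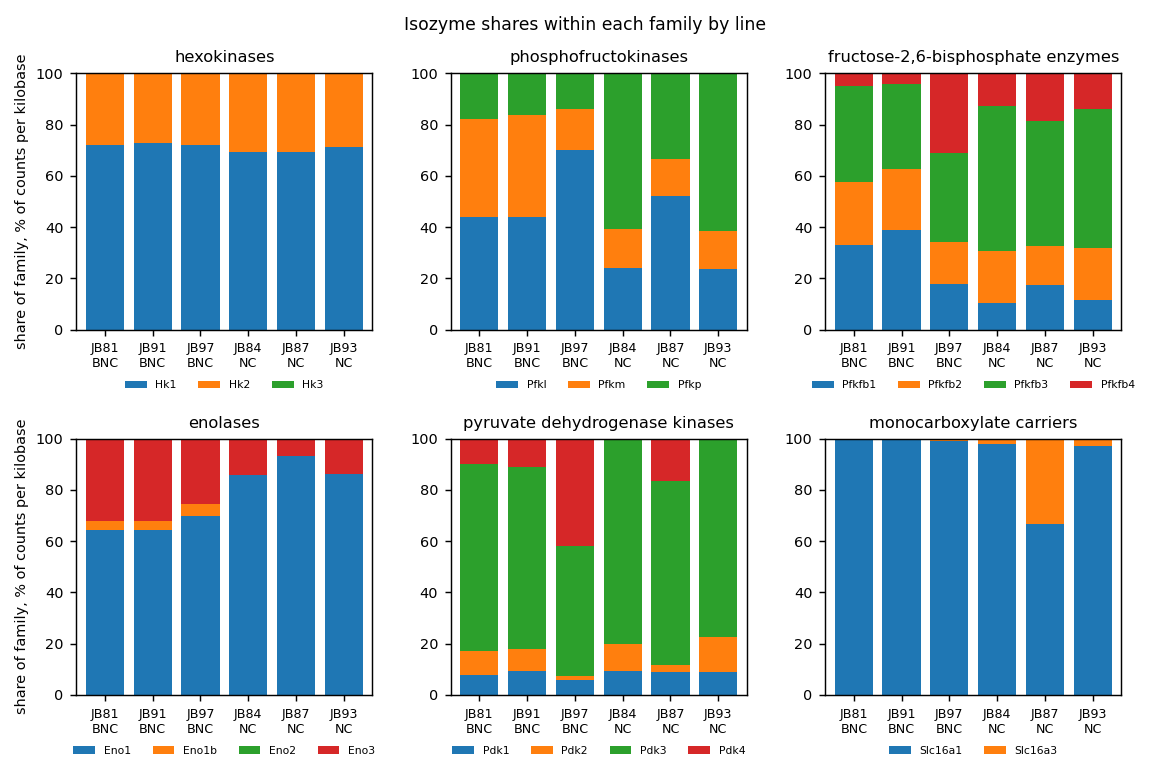
Share of each isozyme in the counts per kilobase of its family, in percent, stacked for each of the 6 lines and for 6 families. The enolase and phosphofructokinase panels show the larger Eno3 part in BNC lines (25.5% to 32.2%) and the larger Pfkp part in NC lines (33.5% to 61.6%), whereas the hexokinase panel is nearly the same in all lines.

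Glucose uptake was represented by Slc2a1 (GLUT1), the transporter of most cultured cells, Slc2a3 (GLUT3), a high-affinity transporter known from neurons, Slc2a4 (GLUT4), the insulin-responsive transporter of muscle and fat, and Slc2a12. Slc2a3 (chr6:122727809-122801640, minus strand) had 0, 2, and 0 counts in JB81, JB91, and JB97 and 93, 90, and 128 counts in JB84, JB87, and JB93. Its NC level of 6.63 ± 0.681 CPM (SD, n = 3) was thus nearly missing from the BNC lines. The pooled ratio of NC to BNC was 211 with a 95% counting interval of 57.9 to 1750 (adjusted p = 0.0105, and 0.0549 to 0.0676 without JB81, JB91, JB84, or JB93). Slc2a3 passed the filter on low counts through the NC lines alone and was not tested with at least 10 counts in every line.

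Slc2a1 was by far the main transporter, at 93.4% or more of the messages of the 4 genes per length in every line. It was read at 45.0, 43.3, and 69.2 CPM in JB81, JB91, and JB97 and at 91.3, 90.0, and 97.7 CPM in JB84, JB87, and JB93. Every BNC line was below every NC line, and JB97 lay between the close pair and the NC lines. The log2 fold change was -0.82 (SE 0.21, adjusted p = 0.0536), which did not pass. Without JB97, which leaves the close pair as the BNC lines, it was -1.07. Slc2a4 and Slc2a12 had at most 3 counts in every line and were not tested.

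Hexokinase phosphorylates glucose. Hk1, the form of most tissues, was read at 48.7, 51.9, and 143 CPM in JB81, JB91, and JB97 and at 123, 120.1, and 133 CPM in JB84, JB87, and JB93. JB81 and JB91 stood low and JB97 stood above all NC lines (log2 fold change -0.63, SE 0.44, adjusted p = 0.336). Hk2, the inducible form of muscle and many tumors, was also lowest in JB81 and JB91 and highest in JB97, from 27.01 CPM in JB81 to 78.7 CPM in JB97 with the NC lines between 76.1 and 78.1 CPM (log2 fold change -0.80, SE 0.45, adjusted p = 0.244). Without JB97, the log2 fold change was -1.31 for Hk1 and -1.49 for Hk2, with the close pair alone as BNC lines. Hk1 made up 72.0% to 72.9% of hexokinase messages per length in BNC and 69.2% to 71.1% in NC lines, and Hk3, known from blood cells, was not tested at no more than 1 count in any line.

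Gpi1, phosphoglucose isomerase, was at 340.1, 359, and 426 CPM in JB81, JB91, and JB97 and at 354, 551, and 402 CPM in JB84, JB87, and JB93 (log2 fold change -0.21, SE 0.21, adjusted p = 0.485). The enzymes that make or break down fructose-2,6-bisphosphate, the activator of phosphofructokinase, were expressed at lower levels. Of these, Pfkfb3, the form with high kinase activity, was read at 16.6, 15.5, and 28.0 CPM in JB81, JB91, and JB97 and at 36.3, 45.0, and 37.2 CPM in JB84, JB87, and JB93. All BNC lines were below all NC lines, without passing the test (log2 fold change -0.98, SE 0.27, adjusted p = 0.0611). With the close pair alone as BNC lines, without JB97, the log2 fold change was -1.29. Pfkfb1, Pfkfb2, and Pfkfb4 had adjusted p of 0.306 to 0.882, and Pfkfb4 ranged from 1.503 CPM in JB91 to 19.2 CPM in JB97, a range inside the BNC genotype wider than that among the NC lines.

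The middle of the chain gave no difference between genotypes that passed the test. Aldoa, the main aldolase at 99.8% or more of aldolase messages per length, was at 589, 644, and 702 CPM in JB81, JB91, and JB97 and at 472, 965, and 548 CPM in JB84, JB87, and JB93 (log2 fold change -0.04, SE 0.29, adjusted p = 0.940). Aldoc, known from brain, stood at 1.51, 1.42, and 1.19 CPM in JB81, JB91, and JB97 and at 1.70, 1.65, and 1.74 CPM in JB84, JB87, and JB93. These groups did not overlap, though at few counts and with an adjusted p of 0.472.

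Tpi1, triose phosphate isomerase, was read at 420.3, 432, and 715 CPM in JB81, JB91, and JB97 and at 379, 695, and 414 CPM in JB84, JB87, and JB93 (log2 fold change 0.07, SE 0.33, adjusted p = 0.887). JB97 and JB87 were again the high lines. Pgk1, phosphoglycerate kinase, ranged from 166 CPM in JB93 to 416 CPM in JB87 with BNC lines inside that range (log2 fold change 0.15, SE 0.43, adjusted p = 0.822). Gapdh, which usually ranks among the most abundant messages of a cell, was read at 2.97, 2.65, and 4.28 CPM in JB81, JB91, and JB97 and at 9.84, 4.70, and 10.6 CPM in JB84, JB87, and JB93.

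Of the 65-base stretches of the Gapdh transcript, 85.5% were found elsewhere in the genome, in 157 bins of 10 kb, and reads of low mapping quality had been discarded. The part of these shared stretches in its low level was not tested. The groups did not overlap (log2 fold change -1.35, SE 0.41, adjusted p = 0.0732). With the close pair JB84 and JB93 alone as NC lines, the log2 fold change of Gapdh was -1.61. Pgk1 and Pgam1 also shared most of their stretches (92.0% for Pgk1), Eno1 shared 68.2% and Pkm 29.6%, so levels of these genes are uncertain as well, and the remaining genes shared 23.5% or less, apart from Eno1b.

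Pgam1, the phosphoglycerate mutase of most tissues, was at 269, 272, and 356 CPM in JB81, JB91, and JB97 and at 224, 603, and 224 CPM in JB84, JB87, and JB93 (log2 fold change -0.23, SE 0.43, adjusted p = 0.718). Pgam2, the muscle form, was not tested. It had 0.221, 0.177, and 0.206 CPM in JB81, JB91, and JB97, 0.0824 CPM in JB87, and no counts in JB84 and JB93.

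Pkm, pyruvate kinase, had the highest level per length of all 36 genes, with a mean of 801 CPM per kilobase over the 6 lines, followed by Eno1 (462), Aldoa (432), Ldha (430), and Tpi1 (317). Pkm was read at 2005, 2070, and 2616 CPM in JB81, JB91, and JB97 and at 1178, 2525, and 1291 CPM in JB84, JB87, and JB93 (log2 fold change 0.42, SE 0.34, adjusted p = 0.395). JB84 and JB93 were low, and JB87 stood with the BNC lines. Pklr, the pyruvate kinase of liver and red cells, had no counts.

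Ldha, the subunit that favors the reduction of pyruvate to lactate, was read at 756, 747, and 966 CPM in JB81, JB91, and JB97. In the NC lines it was at 305 CPM in JB84, 1471 CPM in JB87, and 311 CPM in JB93. The lowest and the highest line thus both belonged to NC (log2 fold change 0.24, SE 0.65, adjusted p = 0.806). Without JB87, which leaves the close pair as the NC lines, the log2 fold change of Ldha was 1.44. Ldhb, the subunit of heart, was low in all lines, with 0.221, 0.442, and 4.33 CPM in JB81, JB91, and JB97 and 0.746, 10.7, and 0.579 CPM in JB84, JB87, and JB93 (log2 fold change -1.26, SE 1.53, adjusted p = 0.570). It made up at most 0.977% of lactate dehydrogenase messages per length.

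The pyruvate dehydrogenase kinases switch off the entry of pyruvate into the citric acid cycle. Per length, Pdk3 was the largest of the family in every line, and it was read at 20.5, 18.4, and 37.9 CPM in JB81, JB91, and JB97 and at 40.9, 56.3, and 39.9 CPM in JB84, JB87, and JB93 (log2 fold change -0.83, SE 0.32, adjusted p = 0.126). Pdk1, a target of hypoxia-inducible factor, was at 5.49, 5.97, and 10.8 CPM in JB81, JB91, and JB97 and at 11.8, 17.1, and 11.2 CPM in JB84, JB87, and JB93 (log2 fold change -0.85, SE 0.36, adjusted p = 0.148). In both genes all BNC lines lay below all NC lines, with JB97 close to the lowest NC line.

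Pdk4, the form induced by fasting, varied widely within both genotypes. It had 106, 108, and 1004 counts in JB81, JB91, and JB97 and 1, 259, and 2 counts in JB84, JB87, and JB93, so its share of the family ranged from 0.0809% in JB84 to 42.0% in JB97. The log2 fold change of 1.52 had a standard error of 1.99 (adjusted p = 0.60), and it was -0.57 without JB97 and 7.84 without JB87. Pdk2 ranged from 1.19 to 7.43 CPM with overlapping groups (adjusted p = 0.155).

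Lactate leaves through Slc16a1 (MCT1), found in most cells, and Slc16a3 (MCT4), known from highly glycolytic cells. Slc16a1 was read at 48.9, 49.2, and 178 CPM in JB81, JB91, and JB97 and at 254, 182, and 247 CPM in JB84, JB87, and JB93. BNC lines lay below NC lines, with JB97 next to JB87 (log2 fold change -1.31, SE 0.56, adjusted p = 0.152). With the close pair alone as BNC lines, without JB97, the log2 fold change was -2.21. Slc16a3 had 0, 0, and 38 counts in JB81, JB91, and JB97 and 88, 1075, and 152 counts in JB84, JB87, and JB93. It met the filter on low counts through the NC lines, where it was higher. Most of its NC level came from JB87, where it made up 33.2% of the messages of the 2 carriers per length, beside 2.35% in JB84 and 2.95% in JB93 and 1.11% in JB97 (log2 fold change -5.73, SE 2.03, adjusted p = 0.105). The total of both carriers was 20.9 ± 17.0 in BNC and 59.2 ± 2.14 in NC lines (CPM per kilobase, SD, n = 3, exact permutation p = 0.10).

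Over 11 families with more than 1 isozyme, 16 of 32 shares did not overlap between the genotypes, beside 41.5% of all tested genes by CPM. The smallest adjusted p of the exact permutation tests was 0.20. Some of the 16 were shares near 0%, such as those of Pgam2 (at most 0.173%) and Eno2 (at most 0.281%). Shares of a family add up to 100%, so they are not independent of each other. Tpi1, Gapdh, and Pgk1 catalyze different reactions and were left out of the shares.

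**Figure D5:**
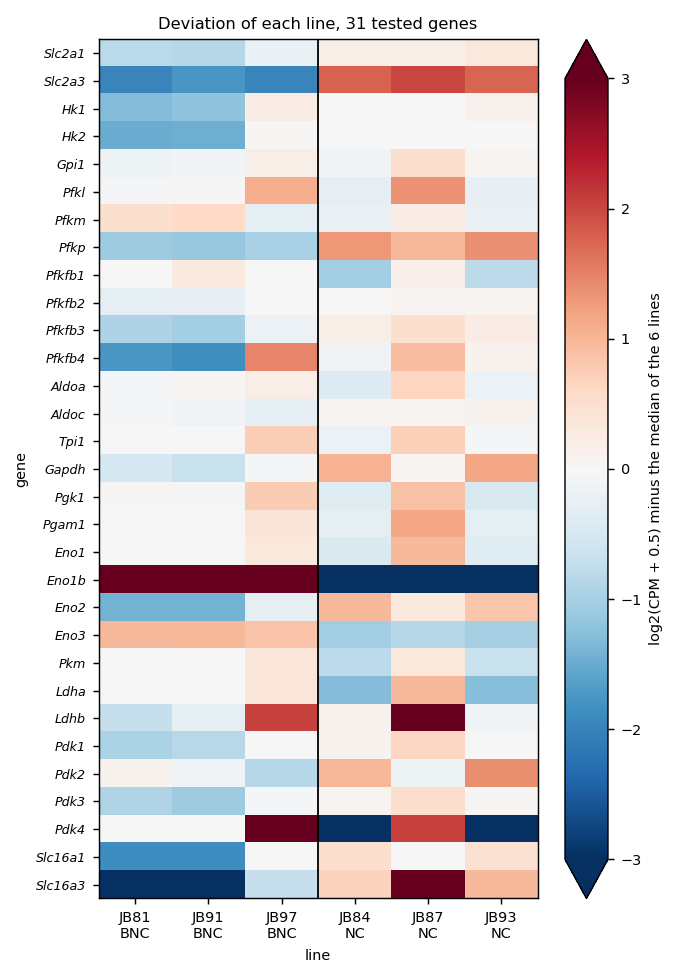
Heat map of log2(CPM + 0.5) of the 31 tested genes in the 6 lines, each gene shown relative to its median over the lines. JB84 and JB93 are low for Ldha, Pgk1, Pkm, and Eno1, JB81 and JB91 are low for Hk1, Hk2, and Slc16a1, and the color scale ends at 3 in both directions.

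The order of the 6 lines was counted over the genes. JB84 and JB93 were the lowest of the 6 lines for 11 of the 31 genes, namely Pfkl, Pfkfb1, Aldoa, Tpi1, Pgk1, Pgam1, Eno1, Eno3, Pkm, Ldha, and Pdk4, which is close to the 31.5% of all tested genes with this order. They were the highest for 7 genes (30.3% of all tested genes). JB81 and JB91 were the lowest for 14 of the 31 genes, among them Slc2a1, Hk1, Hk2, Pfkfb3, Pdk1, Pdk3, Slc16a1, and Slc16a3, beside 23.1% of all tested genes. They were the highest for 2, Pfkm and Eno3, beside 23.3%. No test was made of these orders.

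Marker genes of cell types and of cell division were compared with these orders. The summed level of 7 cell division markers was 2410 to 2700 CPM in BNC lines, 2440 CPM in JB87, and 786 and 813 CPM in JB93 and JB84, which are the lines with low Ldha, Pkm, and Pgk1. None of the 7 passed at an adjusted p under 0.05. The summed level of 12 mesothelial markers was 137 CPM in JB81 and JB91, 989 CPM in JB97, and 2730 to 3430 CPM in NC lines. Slc16a1, Slc2a1, Pfkfb3, Pfkp, Gapdh, Eno2, Pdk1, Pdk3, and Slc16a3 also had JB97 between the close pair and the NC lines. The share of all tested genes with that full order was not counted, and JB81 and JB91 were the lowest lines for 23.1% of them. Wt1 was expressed in all 6 lines (76.9 to 132 CPM), whereas Msln was below 1 CPM in JB81 and JB91, and Krt8 and Krt18 were lower in BNC lines (log2 fold changes -6.74 and -8.12, adjusted p = 0.0457 and 0.0187). These were the 2 of 10 tested mesothelial markers that passed an adjusted p under 0.05 by edgeR, beside 14.2% of all tested genes. Of the 10, 9 had the lower and 1 the higher mean in BNC lines. Fibroblast markers summed to 8290 to 15000 CPM in BNC and 2170 to 7240 CPM in NC lines. Of 5 tested fibroblast markers, 4 had the higher and 1 the lower mean in BNC lines, with 1 in each direction without overlap. By edgeR, 0 of the 5 passed an adjusted p under 0.05. The part of these differences in the levels of the glycolysis genes was not tested, and in bulk RNA fewer cells of a type and less RNA per cell cannot be told apart.

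Other cell types left little RNA. The leukocyte marker Ptprc had at most 1 count in any line, and 6 of 10 leukocyte markers had at most 3 counts in every line. The sums of the list were 5.41 to 47.9 CPM in BNC and 4.48 to 5.16 CPM in NC lines, carried by Lyz2 in JB81 and JB91. Lyz2 (log2 fold change 7.64, SE 1.64, adjusted p = 0.0354) had 6 counts over all NC lines. It passed the filter on low counts through the BNC lines alone, so a difference was built into its being tested. Erythroid markers summed to at most 0.247 CPM and adipocyte markers to at most 3.50 CPM in any line. Endothelial markers summed to 0.309 to 7.68 CPM in BNC and 51.7 to 61.8 CPM in NC lines, almost all of it Kdr, while Pecam1 and Cdh5 were below 0.3 CPM.

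Other genes of glucose metabolism were taken from lists of neighboring pathways. Of 129 genes, 108 were tested, 1 was called, and 17 passed an adjusted p under 0.05, with 7 higher and 10 lower in BNC lines. The background shares are those of all tested genes above, 1.10% and 14.2%. The called gene was Slc2a13, a carrier of inositol, with 201, 177, and 90 counts in JB81, JB91, and JB97 and 0, 1, and 0 counts in the NC lines (pooled ratio 345, 95% counting interval 61.6 to 13600, adjusted p = 0.00941). Of the 6 tested carriers of this list it was the one that passed an adjusted p under 0.05 by edgeR, with 4 at an unadjusted p under 0.05. How many of all tested genes reached that unadjusted threshold was not counted, and their share is at least 14.2%. Slc2a13 passed the filter on low counts through the BNC lines alone.

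In the hypoxia response list, 2 of 20 tested genes were higher and 3 lower in BNC lines at an adjusted p under 0.05. The mitophagy receptor genes Bnip3l and Bnip3 were lower (log2 fold changes -0.92 and -1.29, adjusted p = 0.0142 and 0.0216), as was the carbonic anhydrase gene Car12 (-2.87, adjusted p = 0.0227). Lox, encoding lysyl oxidase, was higher (0.86, adjusted p = 0.0226), and Stc2 was the other gene that was higher. Members of this list thus moved in both directions, with 16 of 20 having the lower mean in BNC lines and a median log2 fold change of -0.64. Among 16 tested regulators of glycolysis, 0 passed by edgeR, with 5 at an unadjusted p under 0.05. The share of all tested genes at that unadjusted threshold was not counted, and it is at least the 14.2% that passed after adjustment.

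The pentose phosphate pathway branches off at glucose-6-phosphate and supplies ribose and NADPH. Of its 9 tested genes, Rpia, which makes ribose-5-phosphate, was higher in BNC lines (log2 fold change 0.85, SE 0.13, adjusted p = 0.0165). Taldo1, transaldolase, and Pgd, which yields NADPH, were lower (-1.34 and -0.81, adjusted p = 0.0215 and 0.0315). In the serine and glycine branch, Mthfd2, a mitochondrial folate enzyme, was higher and Shmt1, cytosolic serine hydroxymethyltransferase, lower (0.50 and -4.51, adjusted p = 0.0405 and 0.0210), out of 7 tested genes. Shmt1 had 10, 10, and 35 counts in JB81, JB91, and JB97, and met the filter on low counts through the NC lines, where it was high. In the hexosamine branch Gfpt1, the rate-limiting enzyme, was higher (0.80, SE 0.12, adjusted p = 0.0175), out of 6.

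On the way of pyruvate into mitochondria, 2 of 11 tested genes were lower in BNC lines. Mpc2, a subunit of the mitochondrial pyruvate carrier, had a log2 fold change of -1.21 (SE 0.21, adjusted p = 0.0215), and Pcx, pyruvate carboxylase, one of -1.36 (SE 0.26, adjusted p = 0.0262). G6pc3, a glucose-6-phosphatase, was the 1 gene of 9 in glycogen and gluconeogenesis that passed (-1.49, adjusted p = 0.0302), and Bpgm, which makes 2,3-bisphosphoglycerate, the 1 of 6 among further glycolytic isozymes (-1.53, adjusted p = 0.0349).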

How the data were processed

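The authors deposited raw counts of reads for each Ensembl gene, which were used unchanged. Per the labels and the methods, poly-A libraries were read as 65-base single ends, aligned with TopHat2 2.0.12 to mm10, stripped of nonprimary alignments and low mapping quality, and counted with HTSeq-count. The strand setting and annotation release are not given in the sources used here, so overlapping genes are uncertain. Columns were assigned to genotypes by line names in the heads of a supplementary table. A further 23 columns (9 of RNA counts, 14 of DNA log2 values) match no label and were not used here.

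BNC and NC lines were compared with edgeR 4.0.16 in R 4.3.3 (filterByExpr with a minimum count of 10, TMM, quasi-likelihood test, no covariates). The standard error is the log2 fold change divided by the square root of F. DESeq2 1.42.0 was an alternative, with other scalings, filters, covariates, summed close lines, and single lines left out. Both tools were tested on simulated data. Pooled ratios carry 95% Clopper-Pearson counting intervals, which cover counting error only. Lengths are of principal transcripts of GENCODE release M21 on GRCm38, 65-base stretches were searched on 21 chromosomes, and promoters are RefSeq's, found for 33 of 36 genes. Of the gene identifiers 98.5% had a symbol.

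All 36 genes are described, with values in every line for those with an adjusted p under 0.05 or groups without overlap and for the most abundant gene of each role. Of other lists, at most 4 genes past 0.05 are named, and 1 list is not reported here. The genes and lists were chosen with earlier results of these data known.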

Additional observations from a re-analysis of the deposited data

How the results depend on the processing

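The number of glycolysis and lactate genes called was 3. It was 4 with DESeq2, with library size in place of TMM, without a filter, with close lines summed and DESeq2, and at an adjusted p under 0.05 without a fold threshold. It was 2 with Eno1 and Eno1b summed and 2 with at least 10 counts in every line, and 0 to 10 with a line left out (10 without JB97 and 6 without JB87). It was 0 with the replicate block by the study's numbers and 0 with the block that gives JB97 number 3. It was also 0 with the prefix of the column names as a covariate, and 0 with close lines summed in edgeR. At an adjusted p under 0.05 the number was 4, with 8 by DESeq2, 6 by library size, 2 with at least 10 counts in every line, 0 with the replicate block by the study's numbers, 0 with close lines summed, and 1 to 13 with a line left out (13 without JB97, 12 without JB87). For the other pathway genes the numbers were 1 called and 17 under 0.05. DESeq2 gave 16 and 36, and at least 10 counts in every line gave 0 called. The replicate block by the study's numbers gave 0 and 0, and the block with JB97 as number 3 gave 0 and 1. The prefix of the column names gave 0 and 1, close lines summed 0 and 0, and the same with DESeq2 3 and 4. The adjusted p of 0.05 without a fold threshold gave 17. With a line left out they were 0 to 11 (8 without JB97, 11 without JB87) and 0 to 60 (30 and 60). Over all 12376 genes tested, 136 were called, with 2023 by DESeq2, 83 with at least 10 counts in every line, and 0 to 2574 with a line left out. The number called was 984 of 12991 genes without JB97 and 2574 of 13091 without JB87. Under 0.05 it was 1761 of 12376 genes, with 3927 of 13360 by DESeq2 and 1870 of 12376 by library size. It was 1108 of 10705 genes with at least 10 counts in every line, 3305 without JB97, and 6800 without JB87. The counts of members and of other pathway genes without JB97 or JB87 thus rose together with those of all genes.

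Lines of the 2 genotypes with the same study number had correlations of their deviations from the group means of 0.101, -0.069, and 0.082. Lines with different numbers had -0.087 to 0.083. This cannot show or exclude pairing, because JB91 and JB97 share number 2 and no BNC line carries the number 3 of JB93.

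Library size moved the median of all genes from 0.00 to -0.14 on the log2 scale. Log2 fold changes near 0 turned: Tpi1 to -0.05 by library size and to -0.10 with the replicate block by the study's numbers, as Pgk1 did (-0.10). With JB97 as number 3 in the block, Pfkl became 0.10, Aldoa 0.03, and Eno1 0.06. With the prefix of the column names they became 0.06, 0.00, and 0.05. With close lines summed, Pfkfb4 became 0.06 (0.09 by DESeq2) and Ldha -0.05 (-0.01 by DESeq2). With a line left out, values that turned sign were, for Aldoa, 0.04 without JB81 and 0.36 without JB87 (range -0.24 to 0.36), for Pfkl 0.17, 0.15, and 0.75 without JB81, JB91, and JB87 (-0.49 to 0.75), for Pfkfb4 0.24, 0.25, and 0.17 without the same lines (-2.47 to 0.25), for Tpi1 -0.21, -0.09, and -0.05 without JB97, JB84, and JB93 (-0.21 to 0.42), for Pgk1 -0.14, -0.06, and -0.09 (-0.14 to 0.73), and for Ldha -0.12 and -0.11 without JB84 and JB93 (-0.12 to 1.44). The ranges of the others were Eno1 -0.34 to 0.53, Gpi1 -0.35 to 0.01, Ldhb -3.54 to 1.34, Nf2 -0.26 to 0.01, Pdk4 -0.57 to 7.84, and Pgam1 -0.47 to 0.43. The causes were not tested. Eno3, Pfkp, Eno1b, and Slc2a3 kept their direction in every alternative in which they were tested. Between 14 and 22 of the isozyme shares did not overlap. The lengths from all exons, the block with JB97 as number 3, and summed lines by DESeq2 were chosen after seeing the data. Tumors were not analysed here, so their scaling alternative was not run.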
